A study of Mus musculus with 6 samples.

Results

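The genes described here are the nuclear-encoded subunits of oxidative phosphorylation. Members were the protein-coding genes of the count table whose names begin with Nduf followed by a, b, c, s or v, with Uqcr, with Cox4 to Cox8, or with Atp5. The rule found 90 of the 54532 genes, of which 38 belong by name to complex I, 8 to complex III, 18 to complex IV and 17 to complex V. The other 9 match by name without being subunits, namely the complex I assembly factors Ndufaf1 to Ndufaf8 and Atp5s, and they were kept apart from the complexes. Sums, counts and medians over all members include these 9. The rule uses names and gene types and no measured value, although the group was proposed with earlier results of these data known.

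RNA was sequenced from MLE12 cells, an established mouse lung alveolar epithelial line, labelled C57BL/6J. Cells of the 3 Ctrl shRNA libraries were infected with a negative control lentivirus. The paper calls this vector empty but lists a sequence for it and names it shCtrl. Cells of the 3 knockdown libraries (SI sh in the plots) were infected with an Idh3α-silencing and an Slc25a1-silencing lentivirus at the same time. Each lentivirus was given at a multiplicity of infection of 50, so the knockdown cells received a pair of vectors and the control cells a single kind. In both groups the medium was changed after 16 h and the cells were kept for a further 80 h. Idh3a encodes the catalytic subunit of the NAD-dependent isocitrate dehydrogenase in the citric acid cycle, and Slc25a1 the carrier that takes citrate out of mitochondria. The comparison asks which transcripts differ when both are silenced. Nothing in the labels says whether libraries of a group came from separate cultures, so the p-values measure only the spread between these libraries, which may be technical.

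As background, complexes I to IV of the inner mitochondrial membrane pass electrons from NADH and succinate to oxygen, all but complex II pump protons, and complex V, the ATP synthase, uses the proton gradient to make ATP. A few core subunits that carry the redox centres or catalytic sites are joined by many small supernumerary subunits, most of them encoded by short nuclear mRNAs, while a handful of hydrophobic core subunits are made from mitochondrial DNA. The mRNAs of the nuclear subunits are abundant in most cells, and several complex IV subunits exist in ubiquitous and in muscle, testis or lung isoforms.

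The 6 libraries held 27273502 to 28535653 counts, but the second control library (Ctrl shRNA 2) stood apart from the other 5. It had counts in 16681 genes, against 19902 in Ctrl shRNA 3 and 22370 to 23147 in the rest. It also had 27.2% of its counts in its top 100 genes against 12.6% to 12.9%, and 5.99% in the 13 mitochondrially encoded mRNAs against 1.52% to 1.69%. Ctrl shRNA 3 thus also lay below the rest in genes with a count, and what this means for the members' levels was not tested. The main comparisons below are given with and without Ctrl shRNA 2. Levels are CPM, gene counts relative to the library total after scaling with TMM factors, and these factors were 0.711 for Ctrl shRNA 2 and 1.05 to 1.08 for the rest. The targeted genes followed the labels. Idh3a stood at 79.8, 137 and 93.0 CPM in the controls against 58.5, 57.9 and 55.5 in the knockdown, and Slc25a1 at 103, 98.7 and 108 against 68.9, 69.6 and 63.0. Without Ctrl shRNA 2 both fell in the quasi-likelihood test of edgeR, by 0.60 on the log2 scale (adjusted p = 0.0142) for Idh3a and by 0.66 (adjusted p = 0.00649) for Slc25a1, while with all 6 libraries the adjusted p-values of edgeR were 0.254 and 0.104. Of 11 lung epithelial markers, 7 passed the count filter, among them Nkx2-1 at 277 to 343 CPM, Krt8 at 232 to 300 and Abca3 at 110 to 141. Without Ctrl shRNA 2, Sftpc fell by 0.65 on the log2 scale (adjusted p = 0.0438 in edgeR), and DESeq2 called Sftpc and Nkx2-1 (log2 fold change -0.23, adjusted p = 0.0350) lower. With all libraries 0 of the 7 passed by either tool. Of the defining alveolar type 2 markers, Sftpc stood at 27.2 to 97.3 CPM, Sftpb at 0.658 to 2.49, Sftpd at 0 and Sftpa1 at 0 in 5 libraries. Ptprc, Adgre1 and Col3a1, markers of leukocytes, macrophages and fibroblasts, were at 0 throughout, whereas the fibroblast proteoglycan gene Dcn stood at 297 to 354 CPM in 5 libraries and at 1211 in Ctrl shRNA 2. The 9 markers of other cells summed to 344, 1236 and 376 CPM in the controls and to 315, 342 and 322 in the knockdown, a sum carried by Dcn. Of the 4 that were tested, 2 (Dcn and Hba-a1, a globin gene at 0.725 to 5.06 CPM) were highest in Ctrl shRNA 2, the library in which most members below were highest, and their part in the results was not tested. The 11 lung epithelial markers summed to 837 to 899 CPM in the controls and to 784 to 838 in the knockdown. Because whole cultures were sequenced, fewer cells with a transcript and less of it per cell cannot be told apart.

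As a group, the members' mRNAs were highest in Ctrl shRNA 2, followed at a distance by Ctrl shRNA 3. Summed over the 90 members, the level was 8817, 38619 and 12481 CPM in the 3 controls and 9435, 7597 and 8814 CPM in the 3 knockdown libraries. The groups overlapped, since the first control lay within the knockdown range. The log2 ratio of the group means was -1.21 with all 6 libraries and -0.31 without Ctrl shRNA 2. Complex I summed to 2377, 11948 and 3564 CPM in the controls and to 2490, 1936 and 2332 CPM in the knockdown. Complex III summed to 804, 4187 and 1238 CPM in the controls and to 848, 664 and 791 CPM in the knockdown. Complex IV gave 1870, 9719 and 2843 CPM against 2001, 1476 and 1822 CPM. Complex V, whose catalytic subunits are encoded by longer mRNAs, gave 3637, 12461 and 4678 CPM against 3957, 3401 and 3735 CPM. In each complex Ctrl shRNA 2 was at the top, Ctrl shRNA 3 next and knockdown 2 at the bottom, and in each the groups overlapped with and without Ctrl shRNA 2.

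**Figure D1:**
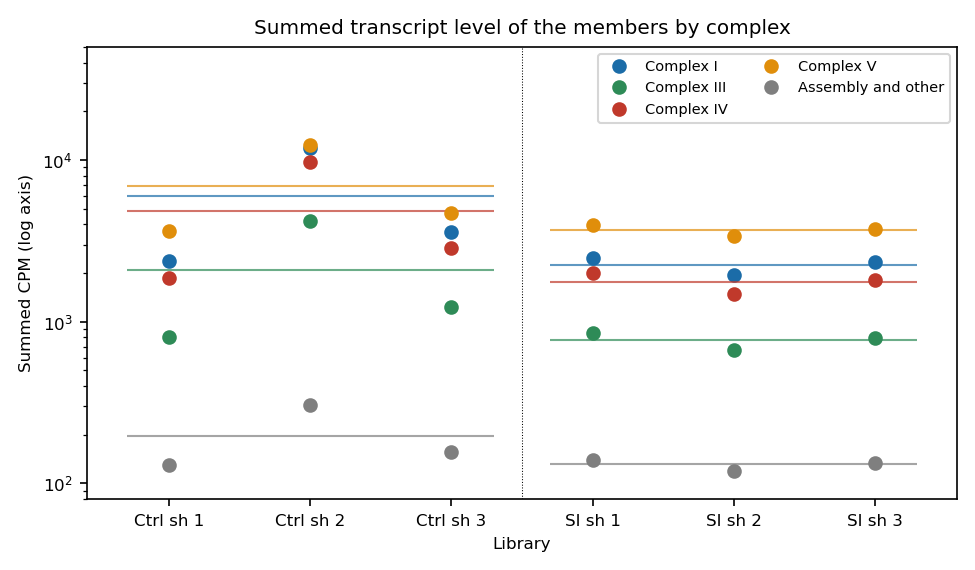
Summed CPM (log axis) of the members of each complex in each of the 6 libraries, as points, with the mean of each group of 3 as a line. Complex I sits at 11948 CPM in Ctrl shRNA 2 and between 1936 and 3564 CPM in the other 5 libraries.

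Of the 90 members, 83 passed the filter on low counts. In the edgeR fit with all 6 libraries, 0 of them passed an adjusted p of 0.05 in either direction, against 0.0588% of the 15307 genes tested that were higher in the knockdown and 0.00653% that were lower. At an unadjusted p under 0.05, 32 of the 83 (38.6%) were lower and 0 higher, against 6.65% and 7.47% of all genes tested. The fitted log2 fold change was negative for 80 of the 83, with a median of -1.20 beside -0.01 over all genes tested. By complex the medians were -1.32 for complex I, -1.55 for complex III, -1.34 for complex IV and -1.28 for complex V. DESeq2 on the same 6 libraries called 7 members lower (8.54% of the 82 with an adjusted p) and 0 higher, against 1.12% and 1.69% of all genes. These were Ndufa6, Ndufc1, Uqcrb, Cox6c, Cox7a2, Cox7c and Atp5mpl, with adjusted p-values of 0.0208 to 0.0492, and in all 7 the high values were those of Ctrl shRNA 2 and, at a distance, of Ctrl shRNA 3.

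With Ctrl shRNA 2 left out the same members moved much less and the set of calls changed. In edgeR 2 of the 83 were lower (2.41%) and 0 higher, against 0.675% and 1.11% of the 15709 genes tested, and the 2 were Cox7a2l and Atp5g2. DESeq2 called these and Ndufb11 lower and 0 higher, against 2.84% and 4.22% of all genes, and none of its 7 calls with all libraries. At an unadjusted p under 0.05 edgeR had 33 lower and 2 higher, against 10.3% and 9.54% of all genes tested. The median log2 fold change was -0.28 over all members, -0.23 for complex I, -0.51 for complex III, -0.43 for complex IV and -0.24 for complex V, beside -0.02 over all genes. The remaining controls differed from each other as well. Ctrl shRNA 3 was above Ctrl shRNA 1 for 79 of the 83 members, against 7641 of all 15307 genes, and knockdown 2 was the lowest of the 6 libraries for 63 of the 83, against 2477 of all genes. With Ctrl shRNA 1 as the single control, the median over the members was -0.06.

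The knockdown libraries lay below every control for 17 of the 83 members (20.5%, against 10.7% of all genes) and above every control for 0 (against 14.7%). Without Ctrl shRNA 2 they lay below both remaining controls for 18 members (21.7%, against 17.5%) and above both for 3 (3.61%, against 20.4%), namely Atp5g1, Atp5a1 and Ndufaf4.

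**Figure D2:**
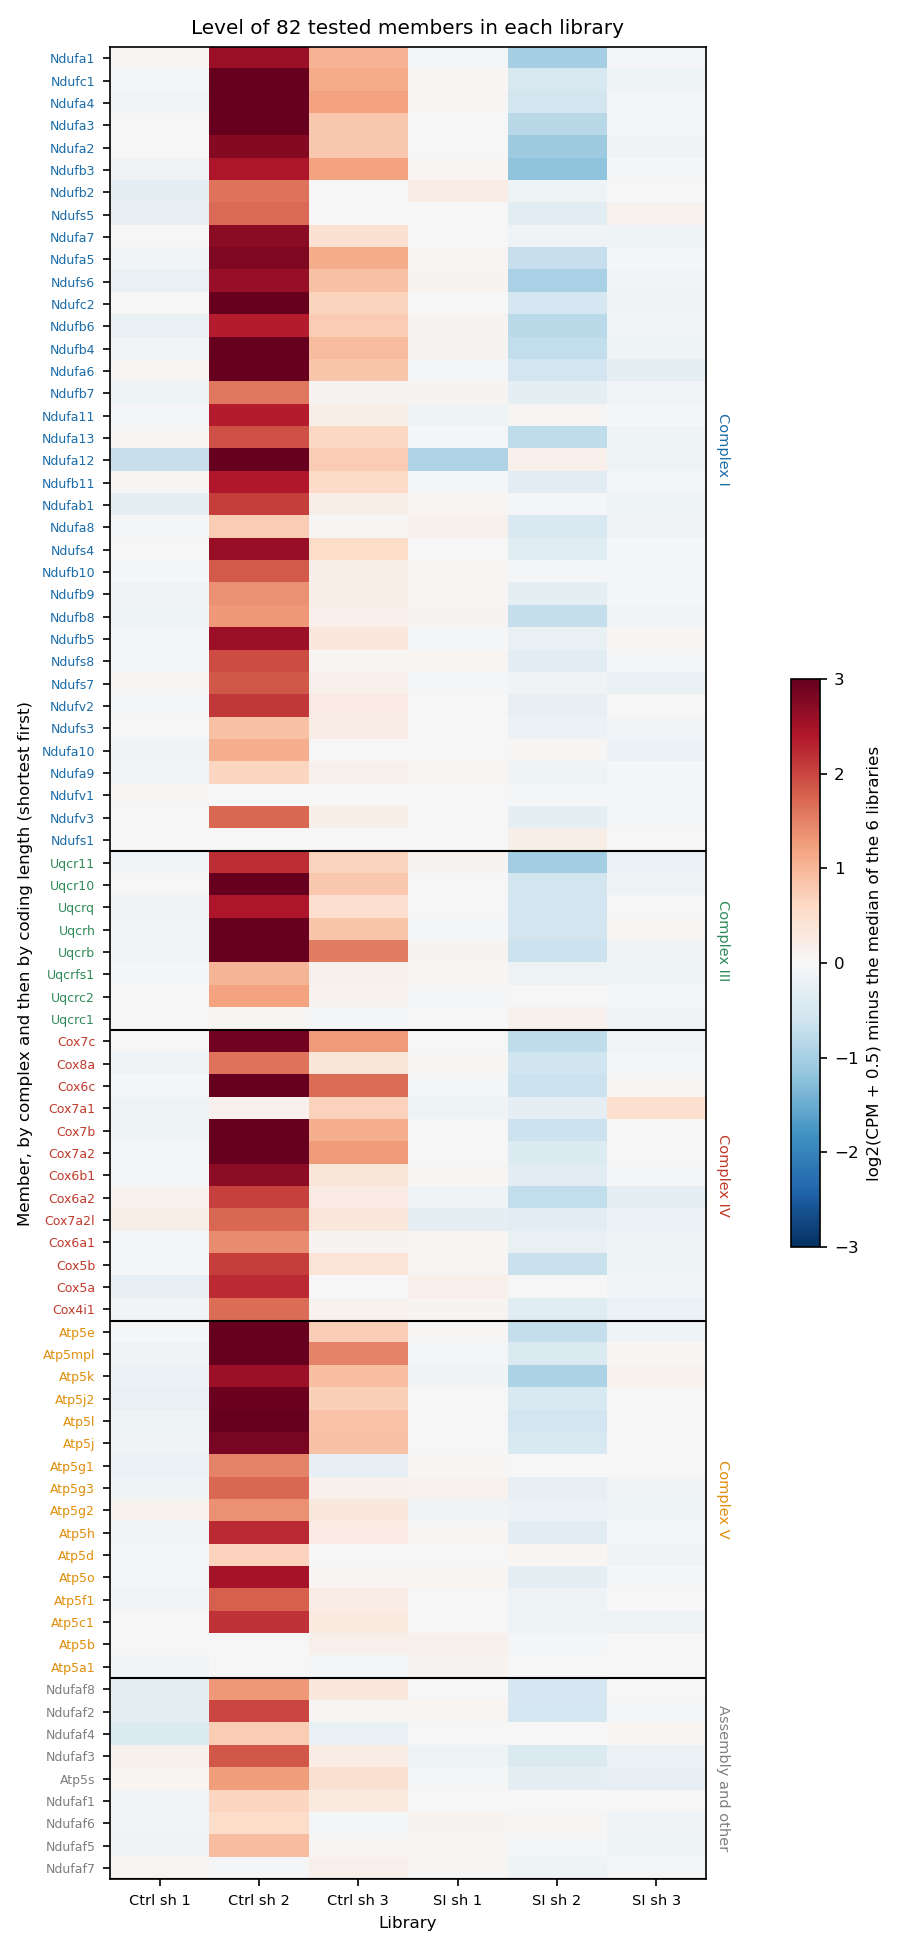
Level of 82 of the 83 tested members (rows, by complex and then from the shortest to the longest coding sequence) in each library (columns), as log2(CPM + 0.5) minus the median of the 6 libraries. Ctrl shRNA 2 is high for most rows, and the rows of Ndufs1, Ndufv1, Uqcrc1, Atp5b and Atp5a1 are near 0 in all 6 libraries.

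**Figure D3:**
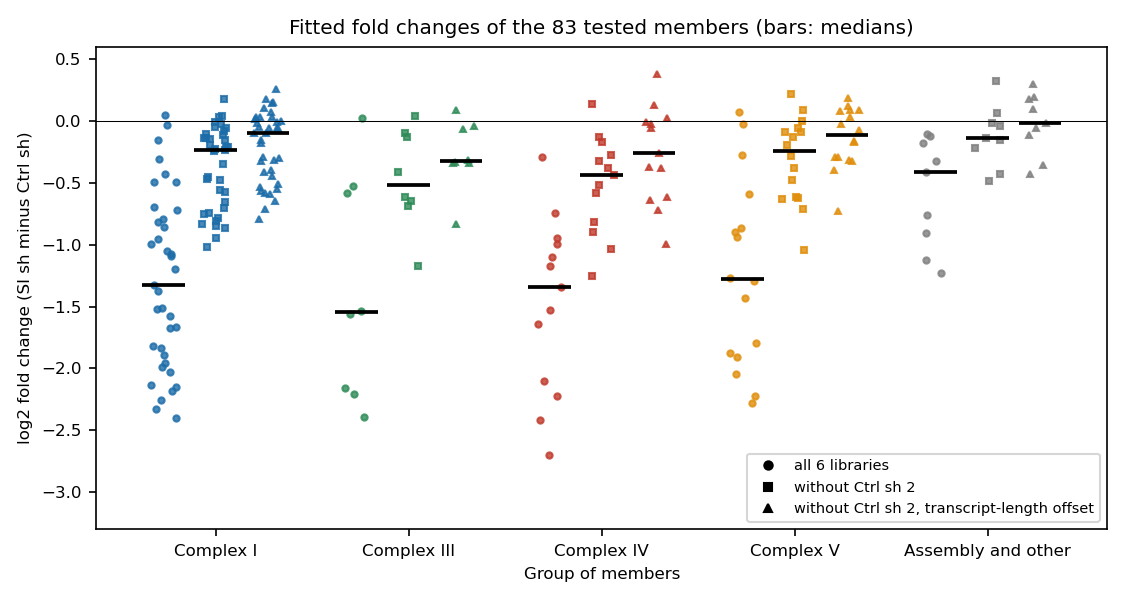
Fitted log2 fold change of each of the 83 tested members (knockdown minus Ctrl shRNA) by complex, with medians as bars, in edgeR with all 6 libraries, without Ctrl shRNA 2, and without it with an offset for transcript length. The median of complex III moves from -1.55 to -0.51 and -0.32.

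In complex I, which oxidises NADH, the sums of the 7 core and the 30 supernumerary subunits differed in how far the libraries spread. The core subunits summed to 552, 1212 and 609 CPM in the controls and to 556, 527 and 529 CPM in the knockdown, so Ctrl shRNA 2 was 2.09-fold above the mean of the other controls. The supernumerary subunits summed to 1824, 10736 and 2955 CPM against 1933, 1409 and 1803 CPM, and Ctrl shRNA 2 was 4.49-fold above the other controls. The median log2 fold change was -0.49 for the core and -1.55 for the supernumerary subunits with all libraries, and -0.15 and -0.46 without Ctrl shRNA 2. Ndufs1, the largest iron-sulphur subunit of the electron input module, stood at 69.6, 69.2 and 68.6 CPM in the Ctrl shRNA libraries against 68.4, 78.4 and 67.9 CPM after knockdown. Its level was thus nearly flat, with a log2 fold change of 0.05 ± 0.08 (SE, n = 3) and of 0.04 ± 0.08 without Ctrl shRNA 2. Ndufv1, which binds the flavin that accepts electrons from NADH, was as flat at 110, 108 and 109 CPM against 110, 106 and 104 CPM (log2 fold change -0.03 ± 0.06, SE, and -0.05 ± 0.06 without Ctrl shRNA 2).

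The core was not uniform. Ndufv2, an iron-sulphur subunit next to Ndufv1, stood at 72.9, 324 and 88.6 CPM against 74.97, 62.9 and 73.6 CPM, and Ndufs7 and Ndufs8, which carry the last iron-sulphur clusters, were also high in Ctrl shRNA 2, at 246 and 241 CPM. Their log2 ratios of Ctrl shRNA 2 to the other controls (1.77 for Ndufs7, 1.96 for Ndufs8 and 2.00 for Ndufv2) were near the median of 2.09 for the supernumerary subunits, whereas supernumerary Ndufa8 (0.77) and Ndufa9 (0.60) lay below them. The classes therefore overlapped.

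The supernumerary subunits included the widest spreads of the complex. Ndufc1, a small subunit of the membrane arm, stood at 42.3, 481 and 96.5 CPM in the Ctrl shRNA libraries against 45.8, 31.1 and 40.4 CPM after knockdown. Its first control lay inside the knockdown range, and its log2 fold change was -2.40 ± 0.87 (SE) with all libraries and -0.83 ± 0.29 without Ctrl shRNA 2, where the adjusted p of edgeR was 0.173. Ndufb4, also of the membrane arm, followed the same course at 51.5, 553 and 106 CPM against 58.2, 32.9 and 50.3 CPM. Ndufa4, named for complex I and since placed in complex IV, had the highest level per length among the complex I names, at 400 ± 215 CPM per kb of transcript (SD over the 5 libraries other than Ctrl shRNA 2). It ran from 193 and 473 CPM in Ctrl shRNA 1 and 3 to 1966 CPM in Ctrl shRNA 2 and stood at 211, 141 and 201 CPM in the knockdown. Ndufa6 was lower in all 3 knockdown libraries, at 63.3, 44.3 and 54.2 CPM, than in the controls at 69.0, 525 and 119 CPM. It was called by DESeq2 with all libraries (adjusted p = 0.0492) and not by edgeR without Ctrl shRNA 2 (log2 fold change -0.81 ± 0.21, adjusted p = 0.104). Ndufb11 stood at 87.5, 457 and 128 CPM against 83.6, 67.4 and 84.6 CPM, and it shares 117 bases with Rbm10 on the opposite strand, a gene with 18365 counts beside its own 22450. Ndufb2 had the lowest level per length, at 1.89 ± 0.26 CPM per kb (SD over 5 libraries), and 1767 counts in all, and it overlaps Braf (13566 counts) on the opposite strand by 146 bases. Ndufa4l2, a hypoxia-responsive paralogue of Ndufa4, was at 0 to 0.174 CPM and was not tested.

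Complex III, which passes electrons from ubiquinol to cytochrome c, showed a like difference between sums. Its 2 core subunits and the Rieske protein summed to 361, 616 and 380 CPM in the controls and to 373, 368 and 342 CPM in the knockdown. Its 5 small subunits summed to 442, 3571 and 858 CPM against 474, 297 and 448 CPM, with Ctrl shRNA 2 at 5.49-fold and Ctrl shRNA 3 at 1.94-fold the level of their respective comparators, the mean of the other controls and Ctrl shRNA 1. Uqcrc1, a core subunit, stood at 154, 161 and 150 CPM against 159, 170 and 145 CPM, a log2 fold change of 0.03 ± 0.09 (SE), or 0.04 ± 0.08 without Ctrl shRNA 2. Uqcrc2, the other core subunit and the lowest of the complex per length (47.0 ± 1.92 CPM per kb, SD over 5 libraries), stood at 89.5, 206 and 94.9 CPM against 87.3, 88.2 and 85.3 CPM. Its knockdown libraries lay below every control, by a log2 fold change of -0.10 ± 0.06 without Ctrl shRNA 2 that did not pass (adjusted p = 0.442 in edgeR). Uqcrfs1, the Rieske iron-sulphur protein, stood at 118, 249.4 and 135 CPM against 127, 109 and 112 CPM. Uqcrb, a small subunit near the quinone site, stood at 69.2, 725 and 219 CPM against 77.6, 46.6 and 68.5 CPM. The first control of Uqcrb was therefore inside the knockdown range, and the call by DESeq2 with all libraries (log2 fold change -2.38, adjusted p = 0.0319) was absent without Ctrl shRNA 2, where edgeR gave -1.17 ± 0.39 (adjusted p = 0.163). Uqcrh, the acidic hinge protein and the highest of the complex per length (259 ± 98.4 CPM per kb), stood at 124, 1268 and 233 CPM against 129, 89.2 and 134 CPM. Uqcr10 stood at 66.6, 585 and 117 CPM against 66.7, 45.0 and 60.7 CPM.

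In complex IV, cytochrome c oxidase, every nuclear subunit is supernumerary, since the catalytic core is made from mitochondrial DNA. The ubiquitous subunits spread widely among the controls. Cox6c stood at 115, 1544 and 383 CPM in the Ctrl shRNA libraries against 117, 75.8 and 122 CPM after knockdown, so that its lowest control was below 2 of the knockdown libraries. With all libraries its log2 fold change of -2.70 ± 0.90 (SE) was the lowest of the 83 members. This became -1.25 ± 0.40 without Ctrl shRNA 2 (adjusted p = 0.156 in edgeR), and 5344 bases of the gene are shared with Vps13b on the opposite strand. Cox7a2 stood at 105, 1230 and 266 CPM against 109, 82.1 and 109 CPM. Among the DESeq2 calls of this complex with all libraries, Cox7c was the exception in that its groups did not overlap. It stood at 107, 779 and 254 CPM against 104, 61.9 and 99.2 CPM, but 104 and 107 CPM differed little. Cox4i1, which carries the regulatory site for ATP, stood at 413, 1403 and 469 CPM against 464, 338 and 385 CPM. Cox6a1 had the highest level per length of all complex IV subunits, at 778 ± 72.5 CPM per kb (SD over 5 libraries), with 441, 1227 and 490 CPM against 480, 391.7 and 418 CPM. Cox6b1 (161, 1096 and 217 against 174, 133 and 164 CPM), Cox7b (75.2, 755 and 175 against 81.6, 51.9 and 81.6 CPM) and Cox8a (209, 696 and 288 against 232, 148 and 218 CPM) were also highest in Ctrl shRNA 2, next in Ctrl shRNA 3 and lowest in knockdown 2.

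Cox7a2l was the member whose difference held best. The gene encodes SCAF1, a protein related to Cox7a2 and studied for its part in supercomplexes of complexes III and IV. Which form of the protein these cells make was not examined. The gene lies at chr17:83501919-83514333 on the reverse strand (mm10). Its level was 98.1, 287 and 110 CPM in the controls and 72.8, 69.7 and 77.8 CPM in the knockdown. All knockdown libraries lay below all controls, and the gap to the lowest control was wider than the range of the knockdown group. Leaving Ctrl shRNA 2 out, it fell by 0.51 ± 0.08 (SE) on the log2 scale (adjusted p = 0.0209 in edgeR). It was also called by DESeq2 without that library and by edgeR with an offset for transcript length (log2 fold change -0.38, adjusted p = 0.0157). With knockdown 2 left out as well, 0 members were called. With all 6 libraries its log2 fold change was -1.17 ± 0.42 (adjusted p = 0.344 in edgeR, 0.106 in DESeq2). Cox5a, a subunit on the matrix side, went the other way from most members without Ctrl shRNA 2, at 53.0 and 63.4 CPM in the remaining controls and 70.5, 63.25 and 60.3 CPM in the knockdown (300 CPM in Ctrl shRNA 2). Its log2 fold change of 0.14 ± 0.10 (adjusted p = 0.453) became 0.38 with the transcript-length offset (adjusted p = 0.0288). It was the single member called higher in any fit run, and in that fit 3.34% of all genes were higher and 2.13% lower.

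The tissue-restricted isoforms of complex IV were scarce. Cox6a2, the heart and muscle form of subunit VIa, stood at 6.88, 28.0 and 7.67 CPM in the Ctrl shRNA libraries against 5.88, 3.59 and 5.19 CPM after knockdown, or 8.59 ± 2.31 CPM per kb (SD over 5 libraries) beside 778 for Cox6a1. Cox7a1, the muscle form of VIIa, stood at 0.494 to 1.43 CPM. Cox4i2, the lung form of subunit IV, stood at 0.194 to 0.418 CPM in this lung line, beside 338 CPM or more for Cox4i1 in every library. Cox6b2 stood at 0 to 0.279 CPM, Cox7b2 was at 0 in 5 libraries, and Cox8b and Cox8c, of muscle and testis, had no count. These 5 isoforms were not tested.

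In complex V the catalytic head, the membrane ring and the stalks differed. The beta subunit Atp5b, which makes ATP, had the highest level per length of the complex (578 ± 37.8 CPM per kb, SD over 5 libraries) and stood at 1061, 1068 and 1200 CPM in the Ctrl shRNA libraries against 1168, 1032 and 1078 CPM after knockdown. The alpha subunit Atp5a1 stood at 575, 611 and 585 CPM against 645, 612 and 604 CPM. Their log2 fold changes were -0.02 ± 0.11 and 0.07 ± 0.09 (SE) with all libraries and -0.06 ± 0.08 and 0.09 ± 0.06 without Ctrl shRNA 2, and Ctrl shRNA 2 did not stand apart for either. Of the central stalk subunits that turn within the head, Atp5d stood at 208, 351 and 216 CPM against 217, 225 and 200.2 CPM. Atp5c1 stood at 168, 742 and 205 CPM against 164, 149 and 149 CPM, below every control. Atp5e, the epsilon subunit, stood at 112, 1075 and 191 CPM against 119, 70.4 and 106 CPM. The peripheral stalk and small membrane subunits summed to 1103, 7335 and 1817 CPM against 1209, 929 and 1193 CPM. Among them Atp5mpl, a small proteolipid of the membrane part, stood at 60.6, 626 and 184 CPM against 63.9, 48.6 and 66.8 CPM and was called by DESeq2 with all libraries (adjusted p = 0.0427), but its log2 fold change of -1.04 ± 0.36 did not pass edgeR without Ctrl shRNA 2 (adjusted p = 0.173). Atp5l, the g subunit, stood at 81.8, 757 and 166 CPM against 90.9, 61.2 and 90.5 CPM.

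The c subunit, which forms the proton-driven ring, is made as an identical mature protein from Atp5g1, Atp5g2 and Atp5g3. Their transcripts are 4715, 731 and 723 bases long, and their fitted fold changes without Ctrl shRNA 2 differed in sign. Atp5g2 stood at 135, 321 and 155 CPM in the Ctrl shRNA libraries against 115, 109 and 113 CPM after knockdown, with no overlap. Without Ctrl shRNA 2 it fell by 0.38 ± 0.08 (SE) on the log2 scale (adjusted p = 0.0482 in edgeR), and with the transcript-length offset by 0.17, which did not pass (adjusted p = 0.153). Atp5g1 stood at 89.3, 287 and 85.2 CPM against 104, 103 and 100 CPM, above both remaining controls, with a log2 fold change without Ctrl shRNA 2 of 0.22 ± 0.06 that missed the threshold (adjusted p = 0.130). Atp5g3 stood at 186, 672 and 223 CPM against 217, 172 and 190 CPM (log2 fold change -0.09 ± 0.11, adjusted p = 0.679). The 3 genes together gave 411, 1280 and 463 CPM in the controls and 435, 384 and 404 CPM in the knockdown. Whether the fold changes of Atp5g1 and Atp5g2 differ from each other was not tested.

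**Figure D4:**
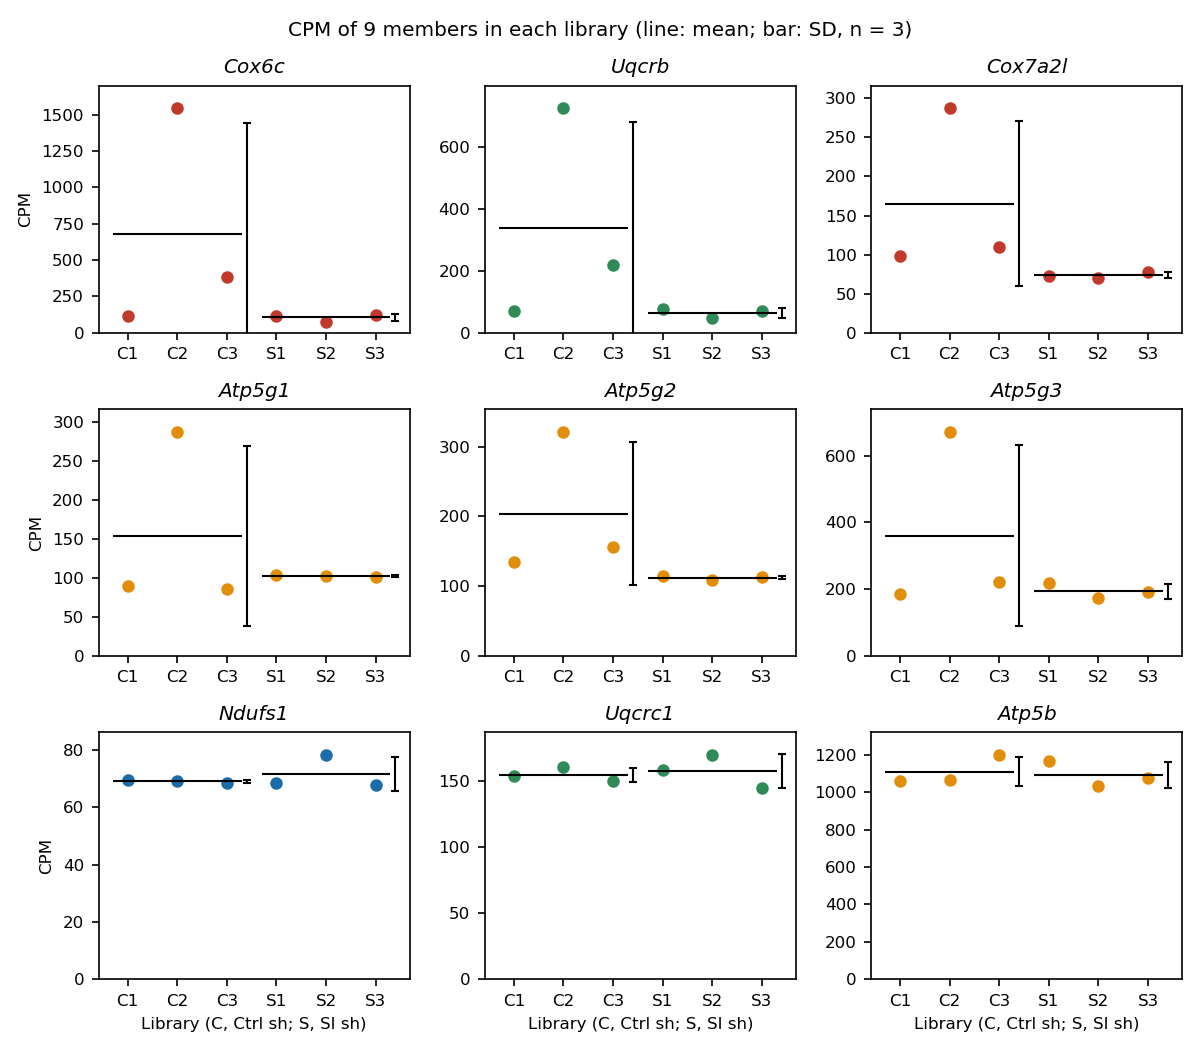
CPM (linear axes from 0) of 9 members in the Ctrl shRNA (C1 to C3) and knockdown (S1 to S3) libraries, with the mean and SD of each group of 3, the SD bar cut at 0 where it runs below. Cox6c, Uqcrb, Cox7a2l and the 3 Atp5g genes are highest in C2, whereas Ndufs1 stays between 67.9 and 78.4 CPM.

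The sequence upstream of the start is shown for the 2 members that edgeR called without Ctrl shRNA 2 and for the other genes of the c subunit, since they encode 1 protein from separate promoters. The bases come from RefSeq (GRCm38.p6), on the strand of the gene, 5′ to 3′, up to the base before the start or before the first base that GENCODE M21 places in an exon. Capitals mark matches on either strand to NRF1 (GCGCA and GCGC with any base between them), GABP (CCGGAAG), ERR (AAGGTCA), NF-Y (CCAAT) or YY1 (AAGATGGC), factors known for their part in nuclear control of mitochondrial genes. Positions are counted from -1, the base before the start. The RefSeq start of Atp5g2 lies inside the gene as deposited (chr15:102662864-102672352), so its window does too. A further short stretch of Atp5g2 lies past the first exon base and is shown for its NRF1 match alone. Matches to the other motifs between the first exon base and the start are not listed for Atp5g1 and Atp5g2.
Cox7a2l, chr17:83514334-83514583, reverse strand, -250 to -1, no match: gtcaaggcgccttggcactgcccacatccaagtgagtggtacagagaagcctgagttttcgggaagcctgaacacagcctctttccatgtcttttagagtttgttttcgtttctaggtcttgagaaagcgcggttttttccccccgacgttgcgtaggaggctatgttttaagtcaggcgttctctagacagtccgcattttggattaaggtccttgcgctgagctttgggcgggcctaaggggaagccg
Atp5g2, chr15:102671128-102671297, reverse strand, -250 to -81, no match: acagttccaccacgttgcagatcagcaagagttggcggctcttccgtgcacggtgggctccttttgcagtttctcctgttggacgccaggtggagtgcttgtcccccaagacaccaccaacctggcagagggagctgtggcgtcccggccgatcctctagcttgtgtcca
Atp5g2, chr15:102671070-102671099, reverse strand, -52 to -23, NRF1 match at -42 to -33: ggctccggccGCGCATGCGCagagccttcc
Atp5g1, chr11:96075671-96075881, reverse strand, -250 to -40, NF-Y matches only, 5 of them: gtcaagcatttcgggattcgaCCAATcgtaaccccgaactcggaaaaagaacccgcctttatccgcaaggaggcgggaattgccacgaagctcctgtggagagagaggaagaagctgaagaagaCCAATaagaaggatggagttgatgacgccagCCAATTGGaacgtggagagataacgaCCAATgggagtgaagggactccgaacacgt
Atp5g3, chr2:73911327-73911576, reverse strand, -250 to -1, NF-Y match at -72 to -68 and ERR match at -52 to -46: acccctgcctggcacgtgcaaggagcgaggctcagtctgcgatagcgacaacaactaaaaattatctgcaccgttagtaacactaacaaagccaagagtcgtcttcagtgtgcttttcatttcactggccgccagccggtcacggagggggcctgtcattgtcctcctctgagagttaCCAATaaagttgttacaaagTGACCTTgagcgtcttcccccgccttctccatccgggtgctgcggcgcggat
The 5 NF-Y matches of Atp5g1 include a pair on opposite strands that overlap. A promoter window of 300 bases, 250 before and 50 after the start, was matched by symbol for 72 of the 90 members and gave 71 distinct windows. The NRF1 motif was in 16 of the 71 (22.5%) and in 4.78% of 27025 genes, GABP in 15 (21.1%) and 9.12%, YY1 in 9 (12.7%) and 2.88%, ERR in 7 (9.86%) and 4.66%, and NF-Y in 31 (43.7%) and 37.9%. The median log2 fold change without Ctrl shRNA 2 was -0.13 over the 16 tested members with the NRF1 motif and -0.34 over the 52 without it. For the other motifs it was -0.28 with and -0.28 without GABP, -0.62 with and -0.28 without ERR, -0.45 with and -0.28 without YY1, and -0.38 with and -0.21 without NF-Y. The members with a motif were thus less negative for NRF1 and more negative for ERR, YY1 and NF-Y, and these differences were not tested. In the 250 bases before the start, the members were richer in G and C than all promoters (median 56.4% against 52%) and in CpG (median 14 against 6 per sequence), which bears on motifs that hold CpG, such as NRF1, and the shares were not adjusted for it. A match is a description of the letters in a window and not of binding.

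The 9 names kept apart were lower in level, and their sum in Ctrl shRNA 2 was 2.12-fold the mean of the other controls. Ndufaf1 to Ndufaf8, which help to build complex I, and Atp5s, a factor coupled to complex V, summed to 129, 304 and 157 CPM in the controls and to 139, 120 and 134 CPM in the knockdown. The median log2 fold change was -0.41 with all libraries and -0.14 without Ctrl shRNA 2, and 0 of the 9 passed in either edgeR fit. Ndufaf7, a methyltransferase, stood at 28.2, 26.4 and 30.1 CPM against 27.8, 24.9 and 26.3 CPM, and Ctrl shRNA 2 was not its highest library.

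Transcript length was considered because most members are short. The median length of the principal coding transcript was 795 bases for the members and 2570 bases for all protein-coding genes, and the coding sequence 417 against 1158 bases. The gene length in the deposited table, which joins all exons of a gene, was less short (1526 against 3422 bases), and for Atp5l it was 6443 bases beside a transcript of 544 bases. Across the 83 members, the log2 ratio of Ctrl shRNA 2 to the mean of the other controls had a Spearman rho of -0.62 with coding length, -0.49 with transcript length and -0.20 with the deposited gene length. The ratio of Ctrl shRNA 3 to Ctrl shRNA 1 had a rho of -0.74 with coding length. The fold change itself had a rho of 0.72 with coding length in all libraries and 0.68 without Ctrl shRNA 2. These are descriptions over genes that share the same 6 libraries.

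The same trend was present over all protein-coding genes, and in each range of lengths up to 4000 bases the median of the members with all libraries was below that of all genes. Of the 139 tested protein-coding genes with transcripts of up to 600 bases, members included, the median log2 fold change was -1.50 with all libraries and -0.44 without Ctrl shRNA 2, beside -1.94 and -0.67 for the 18 members of that length. From 600 to 1000 bases it was -0.79 and -0.21 over 581 genes, beside -1.38 and -0.33 for 30 members. From 1000 to 2000 bases it was -0.16 and -0.07 over 2593 genes, beside -0.92 and -0.18 for 28 members. From 2000 to 4000 bases it was 0.03 and 0.00 over 5169 genes, beside -0.12 and 0.04 for 5 members. With an offset for the trend on transcript length and without Ctrl shRNA 2, the members' median was -0.10. By complex it was -0.10 for complex I, -0.32 for complex III, -0.26 for complex IV and -0.11 for complex V. The offset left part of the trend at the short end, where the median was -0.12 over the 139 genes of up to 600 bases. For the 18 members of that length it was -0.33. In that fit 59 of the 83 were negative, against 6414 of 12566 genes, and 2.41% of the members were lower against 2.13% of all genes, a share near the background. The 2 were Cox7a2l and Ndufa6 (log2 fold change -0.53, adjusted p = 0.0382).

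**Figure D5:**
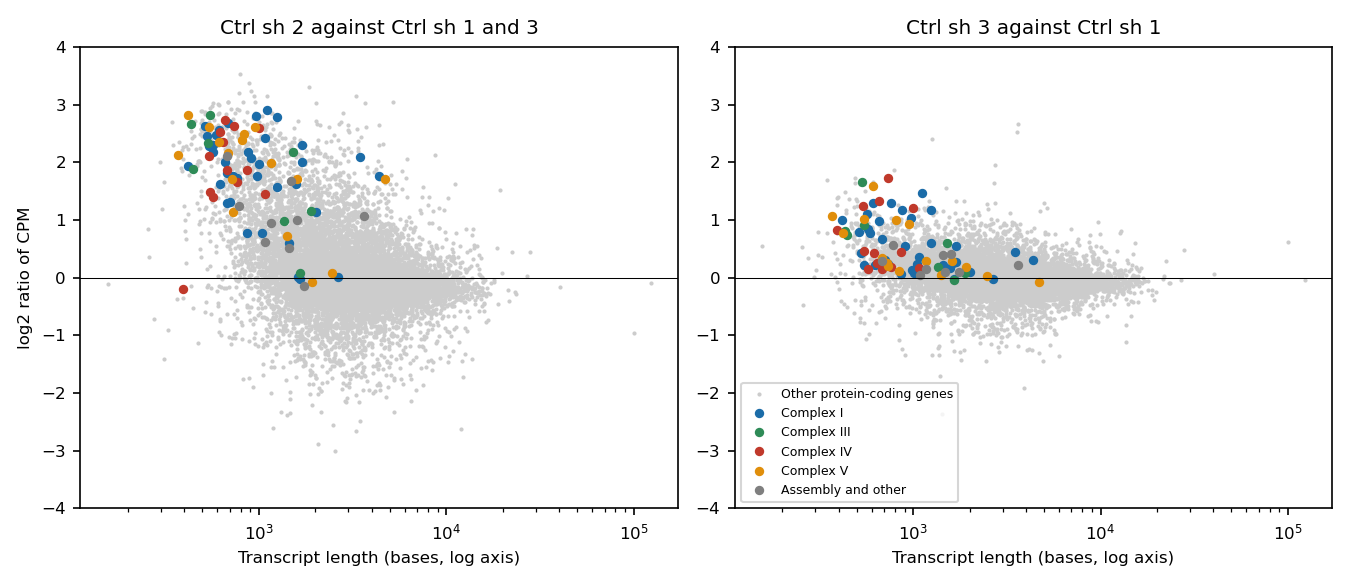
Log2 ratio of CPM between control libraries against transcript length (log axis) for the members, by complex, and for the other protein-coding genes in grey, with Ctrl shRNA 2 against the other controls on the left and Ctrl shRNA 3 against Ctrl shRNA 1 on the right. Members of up to 600 bases have medians of 2.29 on the left and 0.82 on the right, and all protein-coding genes of that length 1.94 and 0.55.

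Summed levels of cytosolic and mitochondrial ribosomal protein genes were also highest in Ctrl shRNA 2 and next in Ctrl shRNA 3. Both sums were lowest in knockdown 2. The 86 cytosolic ribosomal protein genes summed to 34015, 205818 and 48459 CPM in the controls and to 34813, 25963 and 32921 CPM in the knockdown. Of the 84 tested, 0 passed edgeR in either fit, while DESeq2 called 7 lower with all libraries and 3 lower without Ctrl shRNA 2, the same counts as for the members. Their median log2 fold change was -1.60 with all libraries and -0.36 without Ctrl shRNA 2. The 78 mitochondrial ribosomal protein genes summed to 3085, 8898 and 3689 CPM against 3355, 2950 and 3104 CPM, with 77 tested, 0 called in either edgeR fit and medians of -0.63 and -0.09. DESeq2 called 0 of them with all libraries, and 1 higher and 1 lower without Ctrl shRNA 2. In edgeR without Ctrl shRNA 2, 20 of the 77 were positive, against 10 of the 83 members. With the transcript-length offset as well, 39 of the 77 were negative, against 59 of the 83 members.

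The rest of the respiratory pathway was followed by fixed lists. The 4 subunits of complex II, succinate dehydrogenase, had 0 calls by edgeR or DESeq2 and medians of -0.29 with all libraries and -0.11 without Ctrl shRNA 2. Sdha, its catalytic flavoprotein, stood at 158, 156 and 174 CPM against 160, 141 and 145 CPM. Of the mobile carriers and the remaining complex III gene, Cyc1 stood at 113, 106 and 124 CPM against 129, 119 and 119 CPM, while cytochrome c itself (Cycs) stood at 80.2, 527 and 152 CPM against 104, 72.4 and 94.0 CPM. The 12 tested mitochondrially encoded subunits had 0 calls in either edgeR fit and medians of -1.35 and 0.04, and their sum in Ctrl shRNA 2 was 5.46-fold the mean of the other controls. DESeq2 called 0 of them with all libraries and mt-Co1, a catalytic subunit of complex IV, lower without Ctrl shRNA 2 (log2 fold change -0.27, adjusted p = 0.0195).

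Lists of assembly genes outside the name rule had 0 calls in edgeR, over 9 genes for complex I, 6 for complex III, 20 for complex IV and 6 for complex V. Their medians were -0.11, -0.05, -0.22 and -0.28 without Ctrl shRNA 2. The complex V list was one of assembly and inhibition, and it also held Usmg5 and Atpif1. DESeq2 with all libraries called Usmg5, a small ATP synthase protein, at 110, 1751 and 429 CPM against 124, 74.3 and 123 CPM (log2 fold change -2.82, adjusted p = 0.0202). That call was lost without Ctrl shRNA 2, where DESeq2 gave -1.33 (adjusted p = 0.258). DESeq2 without Ctrl shRNA 2 called 3 other genes of these lists lower, each with an adjusted p above 0.05 in edgeR. These were Atpif1, the inhibitor of the ATP synthase (log2 fold change -0.55, adjusted p = 0.00237), Uqcc3 of complex III assembly (-0.86, adjusted p = 0.00637) and Cmc1 of complex IV assembly (-0.72, adjusted p = 0.00607). The 13 genes of coenzyme Q synthesis had 0 calls by either tool, with medians of 0.02 and -0.13. Among 14 tested regulators of mitochondrial biogenesis 0 passed with all libraries (edgeR) and 1 without Ctrl shRNA 2. DESeq2 called 1 of the 14 higher and 0 lower, both with all libraries and without Ctrl shRNA 2. Pprc1, a coactivator related to PGC-1, stood at 114, 78.8 and 102 CPM in the Ctrl shRNA libraries against 161, 190 and 165 CPM after knockdown, with no overlap, and without Ctrl shRNA 2 it rose by 0.66 ± 0.09 (SE) on the log2 scale (adjusted p = 0.0155 in edgeR). The knockdown libraries were above every control for 5 of the 14, namely Pprc1, Nrf1, Yy1, Polrmt and Hcfc1 (against 14.7% of all genes), and above both remaining controls without Ctrl shRNA 2 for 8 of the 14 (against 20.4%). Nrf1, the factor whose motif is counted above, stood at 48.6, 50.6 and 47.7 CPM against 54.4, 58.0 and 52.1 CPM (adjusted p = 0.361), and Gabpa at 137, 131 and 142 CPM against 134, 139 and 134 CPM.

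Copies and overlaps limit single values. Of the 90 members, 38 share bases with another annotated gene, 30 of them on the opposite strand, and for 15 the partner has at least 0.1 of the member's counts. Processed pseudogenes make up 12 of 13 further rows that match the names, and Ndufb1-ps, listed as a non-coding gene, holds 12760 of their 16248 counts. A second row named Atp5o, which shares 1769 bases with the first, had no count.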

How the data were processed

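RNA-seq of 6 MLE12 libraries was analysed, 3 per group, grouped by the treatment in the labels and numbered by the titles. The authors deposited whole-number counts for 54532 mouse genes, together with FPKM, in which they used a library size that was not the count total. The submitters' processing notes name HISAT2 2.0.5, StringTie 1.3.3b, featureCounts 1.5.0-p3 and mm10, and use of strand is not given in the sources used here. Unmodified counts were tested over the whole table with edgeR 4.0.16 (R 4.3.3), with TMM factors, its filterByExpr filter (15307 genes kept), its quasi-likelihood test and a Benjamini-Hochberg adjusted p under 0.05. DESeq2 1.42.0 and limma 3.58.1, the latter on log2(FPKM + 1) and log2(FPKM + 0.1), were alternatives. Length offsets took a loess trend of log2 CPM on log2 length (span 0.5) out of each library. Transcript and coding lengths came from GENCODE M21, in which 84 of the 90 members had identical positions, and promoters from RefSeq. The scripts were tested on simulated data. Plots were drawn with matplotlib 3.10.9.

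Members and gene lists were chosen with earlier results of these data known. The text names Idh3a and Slc25a1, members called by edgeR with or without Ctrl shRNA 2 or by DESeq2, in each complex the 2 highest and 2 lowest fold changes and the highest and lowest level per length, the tissue-restricted isoforms with their ubiquitous partners, and the c subunit genes. Others were chosen after their values were seen. An exact permutation of 3 libraries against 3 cannot give a two-sided p under 0.1. The totals of 27273502 to 28535653 counts limit the precision of low genes, and replicate numbers did not pair the libraries. The values of 1 member are not reported here, though it stayed in the fits, sums and counts.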

Additional observations from a re-analysis of the deposited data

How the results depend on the processing

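The count of members called depended on the tool and on Ctrl shRNA 2. With all 6 libraries 0 were lower under every scaling, filter, limma and length offset run, 7 with DESeq2 and 32 at an unadjusted p under 0.05. Without Ctrl shRNA 2, 2 were lower with TMM factors, median-of-ratios size factors, library size only and either length offset, and 3 with DESeq2. Members higher were 1 with the transcript-length offset without Ctrl shRNA 2 and 0 in every other fit. Leaving out each library in turn gave 0 to 2 lower and 0 higher, the 2 coming without Ctrl shRNA 2. The transcript-length offsets, the libraries without number 2 and the libraries without Ctrl shRNA 2 and 3 were alternatives chosen after seeing the data, and the last leaves a lone control that is assumed to vary like the knockdown libraries.

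Medians of the members' log2 fold changes are given for all members and then complexes I, III, IV and V. With the deposited-length offset without Ctrl shRNA 2 they were -0.21, -0.21, -0.42, -0.35 and -0.18. With DESeq2 without Ctrl shRNA 2 they were -0.27, -0.23, -0.51, -0.43 and -0.23, with median-of-ratios size factors -0.27, -0.23, -0.51, -0.43 and -0.23, and with library size only -0.26, -0.22, -0.50, -0.42 and -0.22. With the transcript-length offset they were -0.10, -0.10, -0.32, -0.26 and -0.11 without Ctrl shRNA 2, and -0.53 for complex III with all libraries. In the libraries without number 2 they were -0.17, -0.18, -0.31, -0.25 and -0.18, and without Ctrl shRNA 2 and 3 -0.065, -0.081, -0.088, -0.083 and -0.027. Leaving out each library in turn, they ran from -1.52 to -0.28, from -1.70 to -0.23, from -1.93 to -0.51, from -1.68 to -0.43 and from -1.64 to -0.24. The log2 ratios of the sums, in the same order, were -0.31, -0.40, -0.42, -0.42 and -0.17 with median-of-ratios size factors and -0.30, -0.39, -0.41, -0.41 and -0.16 with library size only, both without Ctrl shRNA 2, and with each library left out they ran from -1.56 to -0.31, -1.78 to -0.41, -1.82 to -0.42, -1.82 to -0.42 and -1.21 to -0.18. In each of these ranges the value nearest 0 was that without Ctrl shRNA 2. With all 6 libraries, library size only moved the median of all genes to 0.16, whereas without Ctrl shRNA 2 that median was -0.0024.

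The log2 fold change of Idh3a was -0.84 in DESeq2 (adjusted p = 0.0190) and -0.62 with the deposited-length offset without Ctrl shRNA 2 (adjusted p = 0.00736), and ran from -0.997 to -0.60 with each library left out. That of Slc25a1 was -0.62 in DESeq2 (adjusted p = 5.26e-06) and -0.62 with that offset (adjusted p = 0.00359), and ran from -0.66 to -0.57. Both passed in the leave-one-out fit without Ctrl shRNA 2 alone. Some fold changes had the other sign than with all libraries and TMM factors, and the cause was not tested. With library size only Ndufv1 became 0.14 and Atp5b 0.15, and with the deposited-length offset Ndufv1 became 0.027, Ndufs1 -0.0057 and Cox7a1 0.13. With that offset and without Ctrl shRNA 2, Ndufb2 became 0.17, Cox6a1 0.014, Cox5a 0.19 and Atp5g1 0.21. Without Ctrl shRNA 2 and without an offset, Ndufb2, Cox5a and Atp5g1 were already positive, at 0.18, 0.14 and 0.22, and Cox6a1 was at -0.13. With each library left out, Ndufs1 ran from -0.018 to 0.089, Ndufb2 from -1.02 to 0.18, Uqcrc1 from -0.028 to 0.087, Cox5a from -1.48 to 0.14, Atp5b from -0.070 to 0.024, Cox7a1 from -0.77 to 0.15 and Atp5g1 from -0.89 to 0.22.

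Libraries of the same number did not deviate together, with correlations of -0.21, -0.16 and 0.02. With the replicate block 0 members were called in either direction, and the medians were -0.85, -0.86, -1.17, -1.03 and -0.86.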
